A study of Mus musculus with 28 samples.

Results

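The SR proteins, the hnRNPs and the SF3a and SF3b subunits are the RNA-binding proteins that choose and mark splice sites, and 37 of their genes were measured in mouse embryonic fibroblasts (MEFs). The genes were taken by symbol (Srsf, Hnrnp, Sf3a, Sf3b, Tra2a and Tra2b) from the 17097 genes that a probe set named alone, and comprised 9 SR protein genes, 2 Tra2 genes, 17 hnRNP genes, 3 SF3a genes and 6 SF3b genes. They had 97 probe sets, and each gene was represented by the probe set with the highest mean over all 28 arrays. Genes whose probe sets carried several symbols or none were not analysed here.

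WT, p66−/− and p53−/− MEFs were prepared from embryos of 13.5 days and used at passage 2, where p66−/− cells lack p66Shc, an adaptor protein of the oxidative stress response, and p53−/− cells lack the p53 transcription factor. Untreated cells and cells exposed to 400 μM H2O2 were hybridized to 4 arrays each for every genotype. A further 2 arrays for WT and 2 for p66−/− cells followed doxorubicin (Doxo) at 0.25 μg/ml, a DNA intercalator that blocks topoisomerase II. Treatments lasted 4 h by the labels. The labels name C57Bl/6 as the strain and the paper's text names sv129, and no deletion or agent other than these is given. The labels call the arrays biological replicates without naming separate embryos, so p-values measure the spread between these cultures. Values are log2 RMA signals, so a difference of 1 is a doubling, and a change was called where the adjusted p of limma (Benjamini-Hochberg over all 45037 probe sets) was under 0.05. RNA came from whole cultures, in which fewer cells of a type and less RNA per cell cannot be told apart.

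Pre-mRNA splicing removes introns with the spliceosome. SR proteins bind exonic enhancers through RNA recognition motifs and recruit the spliceosome with their arginine-serine domains, whereas hnRNPs coat nascent transcripts and often repress the sites they cover. SF3a and SF3b are parts of the U2 snRNP, which recognises the branch point. Many of these proteins limit their own mRNA by directing the inclusion of exons that send it to decay, so that the level of a mRNA alone does not give that of its protein.

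Before the comparisons, the labels and the array sets were examined. Gadd45a, a stress-induced growth arrest gene, averaged 6.69 on untreated and 9.90 on H2O2-treated WT arrays, and 6.68 and 9.25 on those of p66−/− cells. In p53−/− cells it ran the other way, at 9.62 ± 0.32 (SD, n = 4) on the arrays labelled untreated and 6.57 ± 0.27 (SD, n = 4) on those labelled H2O2. Atf3, a stress-induced transcription factor, did the same, at 8.88 and 5.98. The p53−/− results are therefore given by the labels and again with both labels exchanged. The bioB hybridization control measured 7.91 to 8.17 on the 4 Doxo arrays, 6.62 to 7.47 on replicates 1 and 2 of the other groups and 7.21 to 7.68 on replicates 3 and 4. The Doxo arrays thus form a set of their own without an untreated array in it, and the Doxo effect and the array set cannot be told apart. The 3′ minus 5′ difference of the Gapdh control, which grows when RNA is degraded, lay between -0.10 and -0.05 on the Doxo arrays and between -0.26 and 0.21 over all arrays. Of 11 fibroblast markers measured, 10 or 11 lay above the median of all probe sets in every group, and their mean ranged from 9.12 to 10.24 on untreated WT arrays and from 8.81 to 9.13 after Doxo. The mean of 4 endothelial markers stayed between 3.63 and 3.96 in all groups, and over all arrays Pecam1 (3.28), Tek (3.09) and Cdh5 (3.64) averaged below the lowest array median of 4.35 and Kdr (5.05) above it. Of the macrophage and blood markers Itgam (3.19) and Ptprc (4.22) lay below that median and Csf1r (6.33), Cd68 (6.32) and Adgre1 (6.01) above it, and of the liver markers Alb (3.32) lay below and Afp (4.59) above. Of the epithelial markers Epcam (6.45) and Krt5 (5.00) lay above it and Esrp1 (3.73), Krt14 (3.42) and Cdh1 (3.13) below. Neural, muscle and erythroid markers ranged from Neurod1 (3.27) to Des (6.54). The mean of 5 macrophage and blood markers was 4.42 to 5.43 on untreated WT arrays and 5.26 to 5.55 after Doxo, and that of 5 epithelial markers 4.17 to 4.28 and 4.46 to 4.64. The part of these differences in the Doxo results was not tested.

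All but 3 of the 37 genes had a mean above the median of all probe sets. The exceptions were Srsf12 (mean 2.59), Tra2a (2.89) and Tra2b (3.96), whose signal left little room to fall.

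Doxo was followed by lower values of most SR protein and hnRNP genes. In WT cells 25 of the 37 genes were called against untreated cells, 22 of them lower and 3 higher, where 35.0% of all probe sets and 43.1% of the named genes were called. The lower genes were 59.5% of the 37, against 13.0% of all probe sets and 16.1% of the named genes, and 21.9% of all probe sets were higher. The median change was -0.68 for the 37 genes and 0.13 for all probe sets, so that relative to the median of all probe sets it was -0.82, and 30 genes lay below that median. Groups did not overlap for 31 genes, 24 of them lower, compared with 58.8% of all probe sets, or 19.5% lower. At the thresholds of the study, an unadjusted p under 0.05 and at least 1.5-fold, 20 genes passed, against 22.5% of all probe sets.

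**Figure D1:**
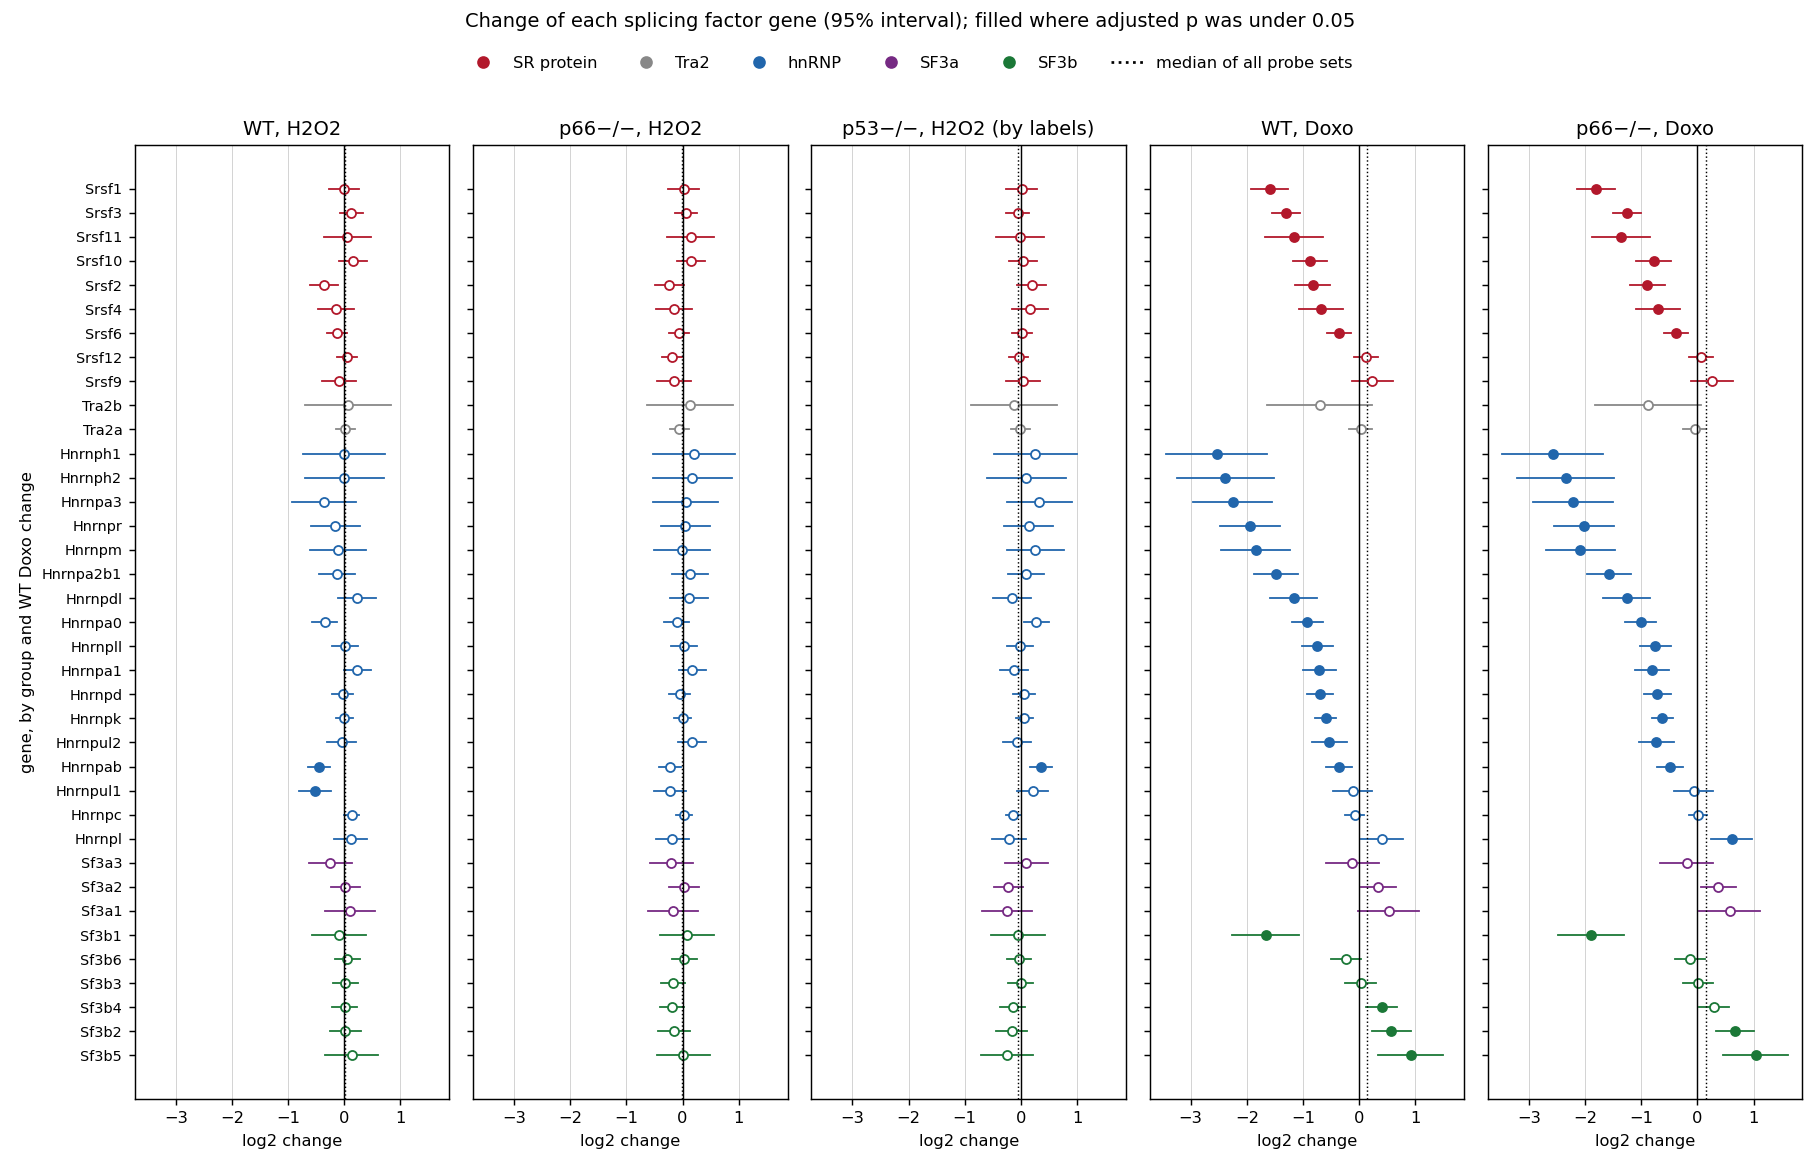
Log2 change of each of the 37 genes (points, 95% interval as lines) in the 5 treatment comparisons, ordered by gene group and by the WT Doxo change; filled points had an adjusted p under 0.05, the dotted line is the median of all probe sets, and the p53−/− panel follows the labels. In both Doxo panels the filled SR and hnRNP points lie left of the line except Hnrnpl in p66−/− cells, while in the H2O2 panels only Hnrnpab and Hnrnpul1 in WT cells and Hnrnpab in p53−/− cells are filled.

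Among the SR protein genes, 7 of 9 fell in WT cells after Doxo and the median change was -0.83. Srsf1, the founding member of the family, measured 11.49, 11.37, 11.29 and 11.35 on the untreated WT arrays and 10.02 and 9.55 on the Doxo arrays. It was thus lower on both treated arrays than on any untreated array of the study, with a change of -1.60 (SE 0.16), or 3.02-fold, at an adjusted p of 4.85e-07. Srsf3, the smallest of the family and an export adaptor as well as a splicing factor, measured 11.23, 11.15, 11.29 and 11.32 before and 10.13 and 9.77 after Doxo. It fell by 1.30 (SE 0.12), or 2.46-fold, with the smallest adjusted p of the 37 genes at 1.94e-07. Srsf11, an SR-related protein, came next with a fall of 1.15 (SE 0.25). Srsf10, which represses splicing when dephosphorylated in heat shock, fell by 0.88 (SE 0.15), and Srsf2, found in nuclear speckles as SC35, fell by 0.83 (SE 0.15). Srsf4 and Srsf6, long SR proteins with extended arginine-serine domains, fell by 0.68 (SE 0.19) and 0.36 (SE 0.10). Srsf9 did not pass the test at 0.23 (adjusted p = 0.31), nor did Srsf12, whose level was low throughout.

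At the chosen probe sets the hnRNP genes held the largest falls, with 14 of 17 lower, none higher and a median change of -0.74. Hnrnph1 and Hnrnph2 encode close paralogs that bind runs of G. Hnrnph1 measured 10.94, 10.91, 10.55 and 10.43 on untreated WT arrays and 8.24 and 8.10 after Doxo. Its change of -2.54 (SE 0.43, adjusted p = 0.000137) was 5.81-fold. Hnrnph2 measured 9.81, 9.68, 9.17 and 9.24 before and 7.39 and 6.79 after, a change of -2.38 (SE 0.42, adjusted p = 0.000177), and neither gene overlapped between the groups.

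Members of the A/B family, which bind splicing silencers, differed in the size of the change. Hnrnpa3 measured 11.20, 11.24, 10.91 and 10.89 before and 9.05 and 8.56 after Doxo, a change of -2.25 (SE 0.34, adjusted p = 3.8e-05). Hnrnpa2b1 stood at 11.38, 11.33, 11.26 and 11.28 before and at 10.02 and 9.64 after, a change of -1.48 (SE 0.19, adjusted p = 5.69e-06). Hnrnpa0 fell by 0.92 (SE 0.13). Hnrnpa1, the best known member, fell by 0.71 (SE 0.14, adjusted p = 0.000829), from 10.98, 11.19, 11.23 and 11.27 to 10.63 and 10.30. Hnrnpab had the smallest called change of the hnRNPs, -0.36 (SE 0.11, adjusted p = 0.017), which no longer passed when replicate 2 of the WT Doxo arrays was left out (-0.28, adjusted p = 0.197) or with replicates 1 and 2 of the other groups alone (-0.26, adjusted p = 0.22).

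Of the other hnRNPs, Hnrnpr, an RNA stability and splicing factor, fell by 1.95 (SE 0.26, adjusted p = 9.04e-06), from 9.67, 9.71, 9.37 and 9.43 to 7.86 and 7.34. Hnrnpm fell by 1.85 (SE 0.30, adjusted p = 7.34e-05), from 9.75, 9.70, 9.40 and 9.42 to 7.88 and 7.56. These 2 genes separated completely between treated and untreated arrays. Hnrnpdl (-1.17), Hnrnpll, a regulator of CD45 splicing in T cells (-0.74), Hnrnpd, which binds AU-rich elements and is also called AUF1 (-0.70), and Hnrnpul2 (-0.53) fell as well. Hnrnpk, a poly(C)-binding protein known as a cofactor of p53, measured 11.56, 11.53, 11.49 and 11.56 before and 11.08 and 10.80 after. At this chosen probe set its change of -0.59 (SE 0.09, adjusted p = 4.33e-05) was smaller but above the spread between replicates. Another Hnrnpk probe set, 1423684_PM_at (mean 10.48), changed by -1.52. Hnrnpc, which binds U-rich tracts, measured 11.89, 11.87, 11.85 and 11.96 before and 11.83 and 11.80 after. Both treated values lay just below the untreated ones, but its change of -0.08 had a 95% interval from -0.25 to 0.09 and was not called. Another Hnrnpc probe set, 1418693_PM_at (mean 8.35), was called lower after Doxo, by limma. It changed by -0.86 in WT cells (adjusted p = 0.0167) and by -0.69 in p66−/− cells (adjusted p = 0.0429). Hnrnpul1 (-0.12) and Hnrnpl (0.41, adjusted p = 0.0761) were not called in WT cells.

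**Figure D2:**
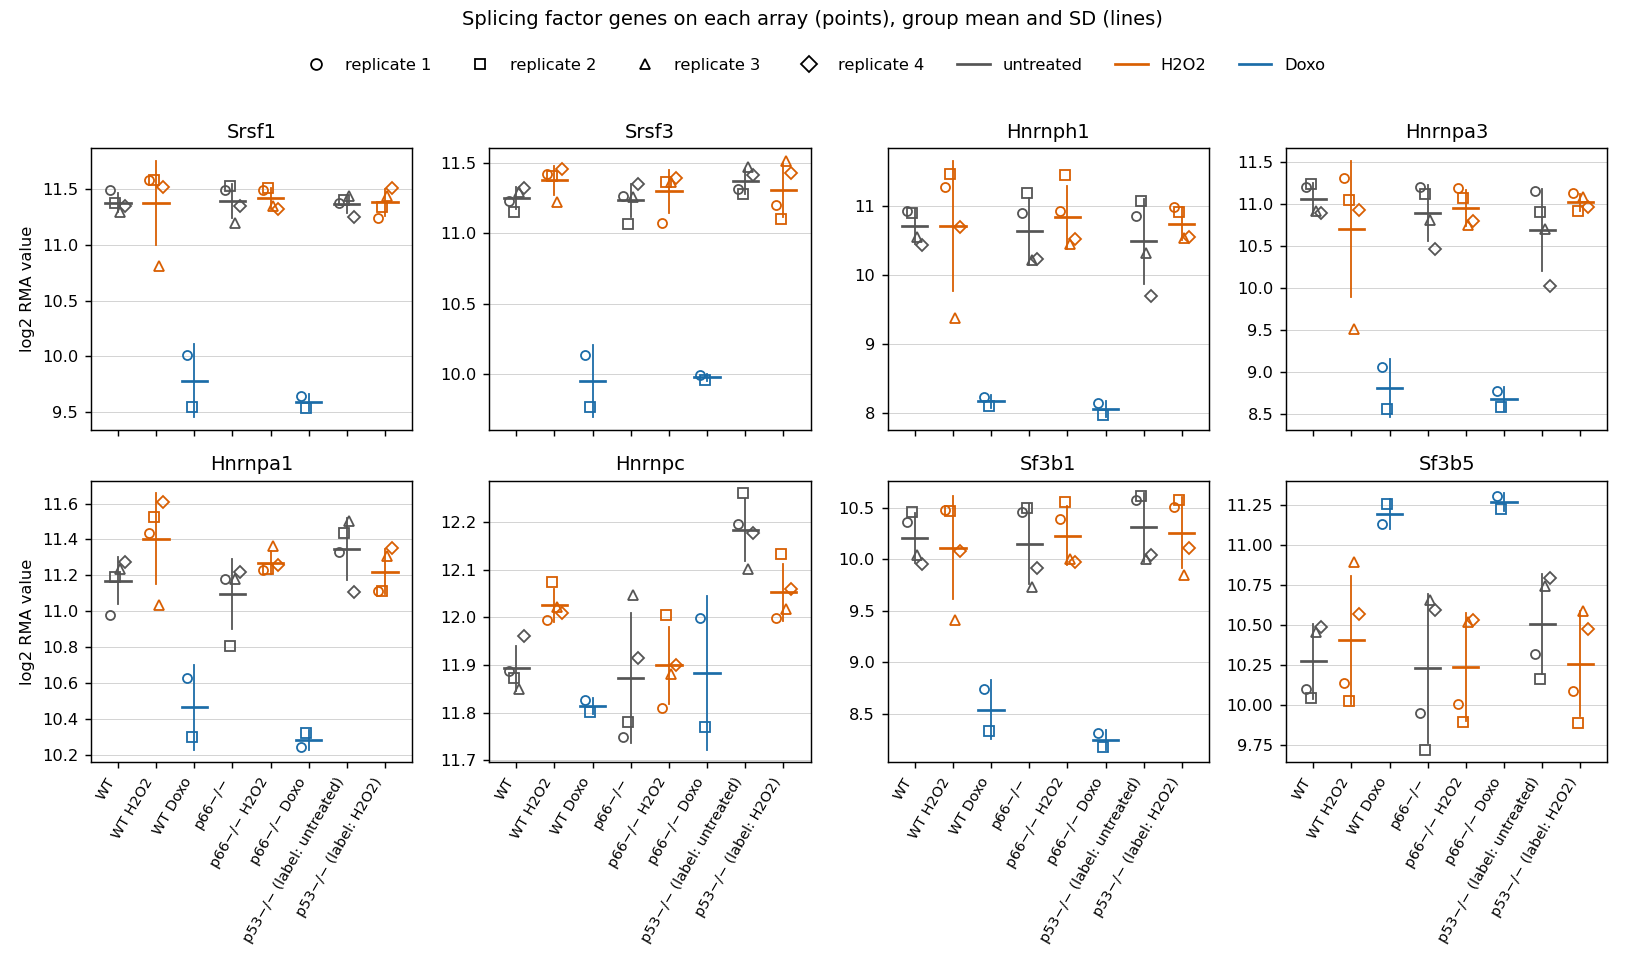
Log2 RMA value of 8 genes on every array (open points, a marker for each replicate number) by group, with the group mean (horizontal line) and SD (vertical line); p53−/− groups are named by their labels. At the chosen probe sets drawn here, both Doxo groups lie below every other group for Srsf1, Srsf3, Hnrnph1, Hnrnpa3, Hnrnpa1 and Sf3b1. They lie above the other groups for Sf3b5 and among them for Hnrnpc.

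The branch point factors split. Sf3b1, the large HEAT-repeat subunit that holds the branch site and a frequent target of mutation in leukaemia, measured 10.37, 10.46, 10.05 and 9.96 on untreated WT arrays and 8.75 and 8.34 after Doxo. It fell by 1.67 (SE 0.29, adjusted p = 0.000146) and was the only one of the 9 SF3a and SF3b genes called lower with all arrays in the fit. Its partners moved the other way or were not called. Sf3b5, a small subunit bound to Sf3b1 and Sf3b3, measured 10.10, 10.05, 10.46 and 10.49 before and 11.13 and 11.26 after. It rose by 0.92 (SE 0.28, adjusted p = 0.0142). Sf3b2 rose by 0.58 (SE 0.17, adjusted p = 0.0104), from 8.77, 8.91, 8.88 and 8.97 to 9.45 and 9.46, and Sf3b4 rose by 0.40 (SE 0.13, adjusted p = 0.0217), from 9.68, 9.54, 9.78 and 9.81 to 10.04 and 10.17. These 3 genes were higher on both Doxo arrays than on any untreated WT array. Sf3b3 (0.03), Sf3b6, which contacts the branch point adenosine (-0.23), and Sf3a3 (-0.12) were not called. Nor were Sf3a1 (0.53, adjusted p = 0.122) and Sf3a2 (0.34, adjusted p = 0.0836) at their chosen probe sets. Another Sf3a1 probe set, 1419087_PM_s_at (mean 7.10), was called higher after Doxo, by limma. It rose by 0.49 in WT cells (adjusted p = 0.0338) and by 0.48 in p66−/− cells (adjusted p = 0.0343). The other Sf3b2 probe sets above the median of all probe sets were not called in WT cells (0.37 and 0.41), nor was that of Sf3b4 (0.33). The Sf3b2 probe set below that median was called higher (0.71).

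Several SF3 genes also differed between the array sets. On untreated WT arrays Sf3b5 was 10.10 and 10.05 in replicates 1 and 2 and 10.46 and 10.49 in replicates 3 and 4. Fitted with replicates 1 and 2 of the other groups alone, its Doxo change was 1.12 (adjusted p = 3.37e-05), and with replicates 3 and 4 alone 0.72 (adjusted p = 0.00043). Sf3b2 passed in both fits, at 0.62 and 0.53, and so did Sf3a1, at 0.73 and 0.32. Sf3b4 passed in the first at 0.49 and missed in the second at 0.31 (adjusted p = 0.0514). Sf3a3 was not called in the first (0.12) but was lower in the second (-0.36, adjusted p = 0.0129), where Sf3a2 was higher (0.39, adjusted p = 0.0462). The number of lower genes was 21 in the first and 24 in the second fit, and that of higher genes 5 and 4. A further quantile normalization, which put the median of all probe sets at 0.10, called Sf3a2 higher as well and left 21 genes lower and 4 higher. The shares of all probe sets called were not counted in any of these fits.

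Neither Tra2 gene was called after Doxo with all arrays in the fit, but the call of Tra2b turned on the arrays it was compared with. Tra2b, which binds GA-rich exonic enhancers with SR proteins, measured 3.94, 4.56, 3.37 and 3.68 on untreated WT arrays and 3.14 and 3.22 after Doxo. Both treated values lay below all untreated ones, but the change of -0.71 had a 95% interval from -1.64 to 0.23 (adjusted p = 0.227). Fitted with replicates 1 and 2 of the other groups alone it was called lower (-1.07, adjusted p = 0.0012), and so it was with replicates 3 and 4 alone (-0.34, adjusted p = 0.0408). In p66−/− cells Tra2b changed by -0.88 (adjusted p = 0.12) with all arrays, was called lower in the first of these fits (-1.46, adjusted p = 0.00011) and missed in the second (-0.30, adjusted p = 0.0743).

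In p66−/− cells the same treatment called 25 genes again, 22 lower and 3 higher, where 40.7% of all probe sets were called, 14.1% lower and 26.6% higher. With replicates 1 and 2 of the other groups alone 22 were lower and 7 higher. With replicates 3 and 4 alone 24 were lower, including Sf3a3 (-0.45, adjusted p = 0.00446) and Sf3b6 (-0.34, adjusted p = 0.0438), and 2 were higher, Sf3b2 and Sf3b5. The shares of all probe sets called were not counted in these fits. With all arrays the median change was -0.71 against 0.15 for all probe sets. Groups did not overlap for 28 genes, 23 of them lower, compared with 58.0% of all probe sets, or 18.8% lower. The p66−/− comparison used its own untreated arrays but shared the Doxo array set with WT. All 22 genes that fell in WT cells fell in p66−/− cells too, Sf3b2 and Sf3b5 rose in both, Sf3b4 was called in WT cells alone and Hnrnpl in p66−/− cells alone, and 11 genes were called in neither. Hnrnph1 measured 10.90, 11.19, 10.21 and 10.24 on untreated and 8.14 and 7.97 on Doxo-treated p66−/− arrays, a change of -2.58 (SE 0.43, adjusted p = 0.000101). Srsf1 measured 11.49, 11.53, 11.20 and 11.35 before and 9.64 and 9.53 after, a change of -1.81 (SE 0.16, adjusted p = 1.39e-07). In both genes no treated array reached an untreated one. Hnrnpm (-2.09), Hnrnpr (-2.03), Sf3b1 (-1.90), Hnrnpa2b1 (-1.57) and Srsf3 (-1.26) fell too. Hnrnpl, which binds CA repeats, rose by 0.61 (SE 0.18, adjusted p = 0.00941), from 9.09, 9.34, 9.59 and 9.82 to 10.06 and 10.07, and missed with replicates 3 and 4 of the other groups alone (0.36, adjusted p = 0.136). Hnrnpab changed by -0.49 (adjusted p = 0.002), a call that was lost without replicate 1 of the p66−/− Doxo arrays (adjusted p = 0.0532).

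The Doxo response itself was compared between p66−/− and WT cells by an interaction term. No gene was called and none had an unadjusted p under 0.05, with limma or with a plain linear model, and 0 of all probe sets were called, with an unadjusted p under 0.05 for 2.39%. The difference was -0.21 (95% interval -0.68 to 0.27) for Srsf1, 0.04 (-0.31 to 0.39) for Srsf3, -0.23 (-1.07 to 0.61) for Sf3b1 and -0.04 (-1.31 to 1.23) for Hnrnph1. With 2 Doxo arrays for each genotype these intervals stay wide, and a like response was not shown.

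RefSeq promoters on GRCm38.p6, from 250 bases before to 50 after the start, were found for 33 of the 37 genes by gene identifier and gave 43 windows. The CCAAT box (CCAAT on either strand), bound by NF-Y, was in 53.5% of them and in 37.4% of all 32851 promoters of the table. The E-box CACGTG, bound by Myc and its relatives and the same on both strands, was in 9.3% against 7.15%. Windows of the genes that fell in WT cells after Doxo held CCAAT in 55.2% and CACGTG in 13.8% of 29 windows from 20 genes. The others held CCAAT in 50% and CACGTG in none of 14 windows from 13 genes. Genes with several starts, such as Hnrnph1 and Srsf4, count more than once, so the shares are of windows and not of genes. The median GC content was 63.3% for the members and 52.7% for all promoters. A match is a description of the letters, not of binding. The 100 bases before the start are printed for genes with 1 start each that illustrate the stretches with an E-box, with 1 or 2 CCAAT boxes and with neither, in capitals where a motif was matched, 5′ to 3′ on the strand of the gene. They lie at chr2:75659159-75659258 (plus strand) for Hnrnpa3, chr17:29032560-29032659 (plus) for Srsf3, chr11:51606882-51606981 (minus) for Hnrnpab and chr1:55027479-55027578 (minus) for Sf3b1.
Hnrnpa3: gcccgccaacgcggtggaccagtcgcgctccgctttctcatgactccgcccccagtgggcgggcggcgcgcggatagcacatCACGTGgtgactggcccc
Srsf3: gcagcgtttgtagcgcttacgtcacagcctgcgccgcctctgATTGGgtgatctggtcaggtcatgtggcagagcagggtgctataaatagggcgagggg
Hnrnpab: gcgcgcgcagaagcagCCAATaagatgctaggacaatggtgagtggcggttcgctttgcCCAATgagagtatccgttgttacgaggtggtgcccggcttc
Sf3b1: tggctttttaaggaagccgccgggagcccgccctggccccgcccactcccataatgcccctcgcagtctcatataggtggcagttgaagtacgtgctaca
Over its whole window Hnrnpa3 holds a CCAAT box as well as the E-box, Srsf3 holds CCAAT and Sf3b1 holds neither, and all 3 genes fell after Doxo.

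H2O2 moved few of the genes. In WT cells 2 of the 37 were called, both lower, where 3.66% of all probe sets were called and 1.81% were lower, and the median change was 0.00. Hnrnpab measured 11.96, 11.87, 12.13 and 12.12 on untreated arrays and 11.69, 11.47, 11.57 and 11.57 after H2O2. The groups did not overlap, as for 5 of the 37 genes and 8.39% of all probe sets, and the change was -0.45 (SE 0.09, adjusted p = 0.00556, exact permutation p = 0.0286, the smallest that 4 against 4 arrays allow). Hnrnpul1, an hnRNP U-like protein with a role in DNA end resection, measured 8.94, 9.33, 9.19 and 9.15 before and 8.46, 8.74, 8.67 and 8.64 after. Its change was -0.52 (SE 0.14, adjusted p = 0.0304), a call that was lost when replicate 2, 3 or 4 of the untreated or replicate 1 or 4 of the H2O2-treated WT arrays was left out, so that 1 gene remained called. Neither fall reached 1.5-fold, and 0 genes passed the thresholds of the study, against 4.66% of all probe sets. With the replicate number as a block, 4 genes were called, among 6.95% of all probe sets. The added genes were Srsf2, at a change of -0.36 (adjusted p = 0.033), and Hnrnpa0, at -0.35 (adjusted p = 0.0495).

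The genes with the largest Doxo falls at the chosen probe sets were not called there after H2O2. Srsf1 measured 11.58, 11.58, 10.81 and 11.52 on H2O2-treated WT arrays, a change with a 95% interval from -0.28 to 0.27, and Srsf3 changed by 0.13 (SE 0.10). Replicate 3 of this group lay below its other arrays for Srsf1 and several other genes. On it Hnrnph1 was 9.38, compared with 10.70 to 11.47 on the other 3, Hnrnpa3 was 9.51 compared with 10.93 to 11.31, and the median of the 37 genes was 9.52, the lowest outside the Doxo arrays. Without this array the WT H2O2 median was 0.05 and the count was 2.

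In p66−/− cells no gene was called after H2O2, and 2 had an unadjusted p under 0.05, where 0.0178% of all probe sets were called and 4.41% had such a p. Hnrnpab measured 12.17, 11.87, 12.13 and 12.14 before and 11.93, 11.58, 11.94 and 11.97 after H2O2, with a change of -0.22 (SE 0.09). Hnrnpul1 changed by -0.23 (SE 0.14). The response of p66−/− cells did not differ from that of WT cells in a test of the difference for any gene (0 called, 0 with an unadjusted p under 0.05, against 0.00222% of probe sets called and 3.05% with such a p), which does not show that the responses were alike.

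By the labels, 1 gene was called in p53−/− cells after H2O2, where 4.56% of all probe sets were, 2.11% higher. Hnrnpab measured 12.03, 11.77, 11.72 and 11.87 on the arrays labelled untreated and 12.22, 12.20, 12.18 and 12.24 on those labelled H2O2. It was higher by 0.36 (SE 0.09, adjusted p = 0.0251), and with the labels exchanged lower by the same amount, -0.36, in the direction of WT cells. This call was lost on leaving out any of 6 arrays of the 8 (all but replicate 1 of the arrays labelled untreated and replicate 3 of those labelled H2O2), when 0 genes remained. By the labels the H2O2 response differed between p53−/− and WT cells for 4 genes, where 10.8% of all probe sets were called, 5.17% higher. These were Hnrnpab (0.81, adjusted p = 0.000178), Hnrnpa0 (0.63, adjusted p = 0.00813), Hnrnpul1 (0.73, adjusted p = 0.014) and Srsf2 (0.55, adjusted p = 0.0415), the last of which was lost on leaving out any of 13 of the 16 arrays compared. With the labels exchanged none of them was called, at differences of 0.09, 0.07, 0.31 and 0.17, and 0.02% of probe sets were.

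In untreated cells no gene was called between p66−/− and WT, and none had an unadjusted p under 0.05, with 0 of all probe sets called and 1.32% at such a p. Against WT, the p53−/− arrays labelled untreated had higher Hnrnpc (0.29, SE 0.07, adjusted p = 0.0103) and Sf3b3 (0.40, SE 0.11, adjusted p = 0.0297), where 4.75% of all probe sets were called, 2.86% higher. Hnrnpc measured 12.20, 12.26, 12.10 and 12.18 there and 11.89, 11.87, 11.85 and 11.96 on untreated WT arrays, with no overlap. With the labels exchanged the differences were 0.16 and 0.40 and neither was called, among 0.0844% of probe sets. Sf3b3 was lost by labels on leaving out replicate 1, 2 or 4 of the WT or replicate 2 or 4 of the p53−/− arrays, which left 1 gene, and with the replicate block 4 genes were called, among 9.55% of probe sets.

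Set against each other, the 2 treatments of WT cells differed for 23 genes, 20 lower and 3 higher after Doxo, where 29.8% of all probe sets were called, 12.0% lower and 17.7% higher. The median difference was -0.54, against 0.11 for all probe sets. Srsf3 was lower by a log2 difference of -1.43 (SE 0.12, adjusted p = 9.92e-08) and Srsf1 by -1.59 (SE 0.16, adjusted p = 7.22e-07). Hnrnpab was called lower than untreated after both agents at its chosen probe set, and no difference between them was called (0.08, 95% interval -0.15 to 0.32). Its Doxo call depended on the arrays fitted and on the probe set. Without replicate 2 of the WT Doxo arrays 15 genes were called. The array sets of the 2 treatments differ, as above.

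Probe sets of 1 gene read different stretches of its transcripts, mostly near the 3′ end, and 26 of the genes had more than 1. Of the 60 other probe sets, 6 in 5 genes correlated negatively with the chosen one over the 8 group means or were called in the opposite direction, and 3 of these lay below the median of all probe sets (in Hnrnpc, Hnrnpr and Sf3b6). In all, 56 of the 97 probe sets were lower and 9 higher in WT cells after Doxo, where 13.0% of all probe sets were lower and 21.9% higher. Several other probe sets fell further than the chosen one. For Srsf10 the chosen probe set changed by -0.88 and others by -4.13 and -2.87. For Srsf1 the largest change was -3.61, against -1.60 at the chosen probe set, and for Srsf3 -2.93 against -1.30. Hnrnpab and Srsf2 had a probe set called in the opposite direction. For Hnrnpab the probe set 1426114_PM_at measured 8.82, 9.01, 9.76 and 9.77 on untreated WT arrays and 10.59 and 10.92 after Doxo. That rise of 1.42 (adjusted p = 0.0205) opposed the change of -0.36 at the chosen probe set, and the mean over all probe sets of Hnrnpab gave 0.081. The rise also followed the array sets, with replicates 3 and 4 above replicates 1 and 2 in every group of 4. For Srsf2 the probe set 1427815_PM_at, at a low level of 4.33, 4.32, 4.36 and 4.44 before and 4.70 and 5.27 after, rose by 0.62 (adjusted p = 0.00658) while the chosen one changed by -0.83, and the mean over its probe sets was not called (-0.24, adjusted p = 0.18).

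**Figure D3:**
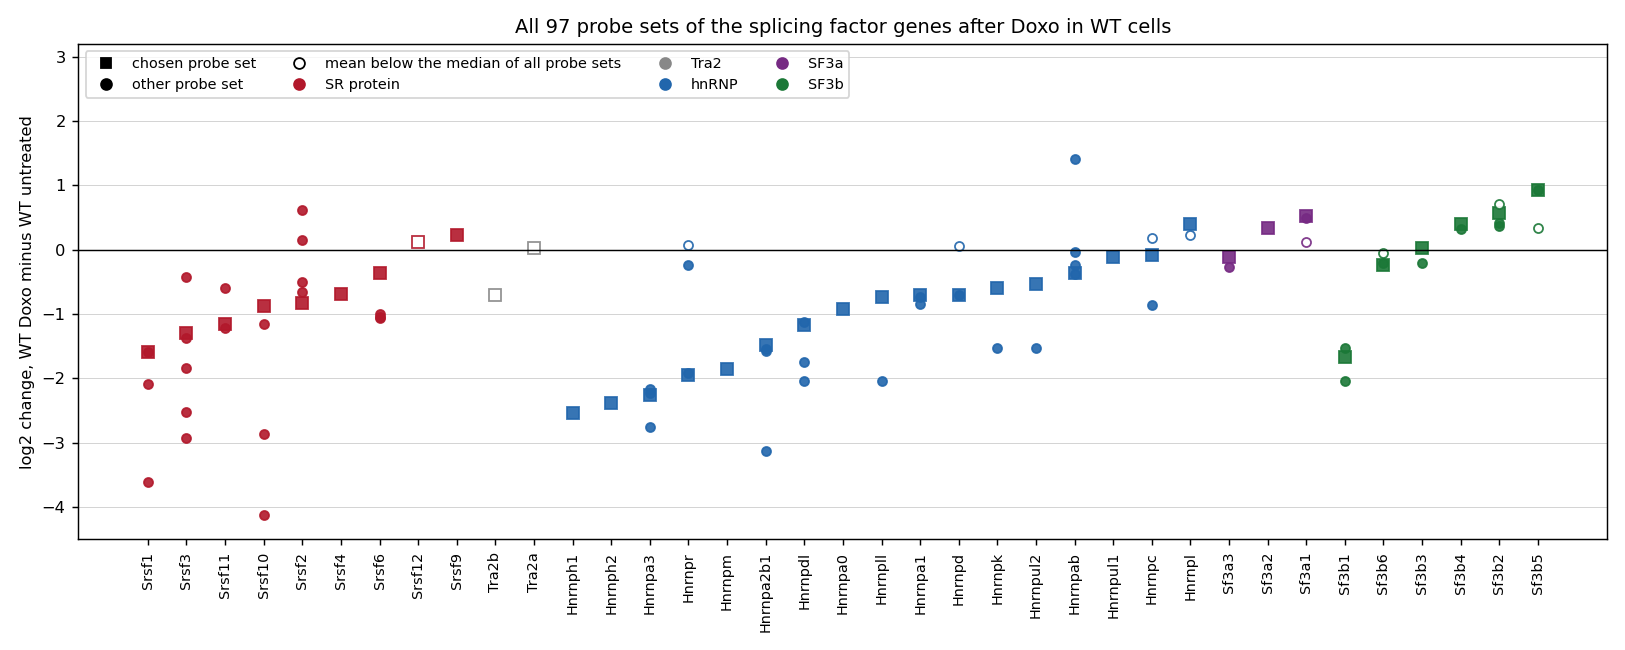
Log2 change in WT cells after Doxo of all 97 probe sets, by gene in the order of the plot of changes; squares are the chosen probe sets, circles the others, and open symbols had a mean below the median of all probe sets. The others of Srsf1, Srsf3 and Srsf10 reach -3.61, -2.93 and -4.13, and single circles of Hnrnpab (1.42) and Srsf2 (0.62) lie on the opposite side of 0 from their squares.

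**Figure D4:**
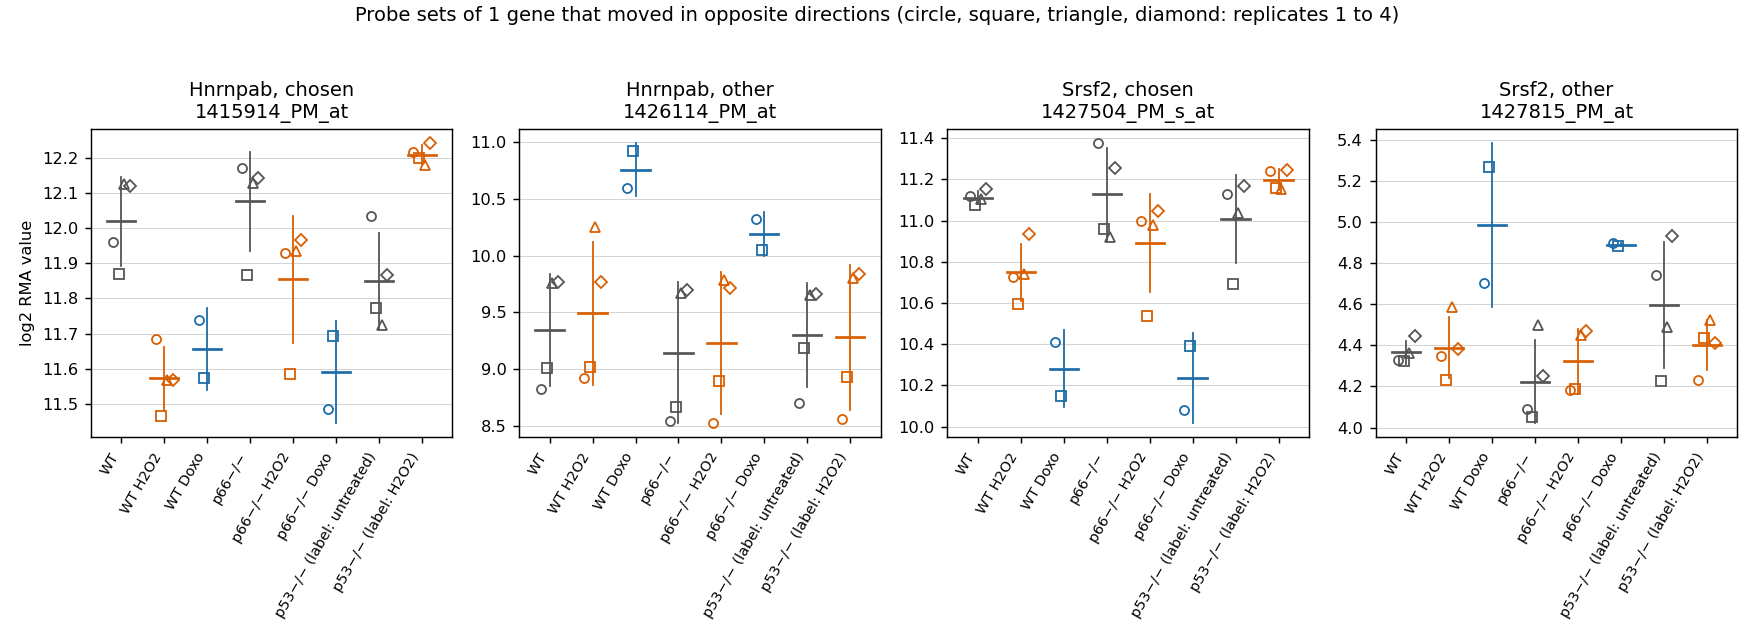
Log2 RMA values on every array of the chosen probe set and of a probe set that moved against it, for Hnrnpab and Srsf2, with group mean and SD. After Doxo in WT cells the chosen probe sets changed by -0.36 and -0.83 and the others by 1.42 and 0.62.

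After H2O2 in WT cells, 3 of the 60 other probe sets were called and all 3 were higher. Of all probe sets 3.66% were called in either direction, 1.81% lower and the rest higher. Whether the shares differ was not tested. Both of the called probe sets of Srsf3 rose further than its chosen probe set, which changed by 0.13. Its remaining probe sets changed by 0.51, 0.36 and 0.25 and were not called. At 1416151_PM_at Srsf3 measured 7.62, 7.74, 7.54 and 7.77 before and 8.45, 8.70, 8.28 and 8.67 after H2O2, a rise of 0.85 (adjusted p = 0.00321). At 1438215_PM_at it measured 6.48, 6.42, 5.97 and 6.19 before and 7.44, 7.79, 6.59 and 6.90 after, a rise of 0.91 (adjusted p = 0.0446). No treated array overlapped with an untreated one at either. In p66−/− cells the changes were 0.19 and 0.95, neither called, and in p53−/− cells -0.57 and -0.89 by the labels, the second called (adjusted p = 0.0429), or 0.57 and 0.89 with the labels exchanged. The third, for Hnrnpdl (1456698_PM_s_at), rose by 0.80 (adjusted p = 0.0248). It was not called in p66−/− cells (0.33) or in p53−/− cells (-0.61 by the labels, 0.61 with the labels exchanged). Other Hnrnpdl probe sets, 1424252_PM_at and 1449039_PM_a_at, changed by -0.62 and 0.40 in WT cells, neither called. After Doxo the changes in WT cells were -2.52 at 1416151_PM_at of Srsf3 and -1.74 at 1456698_PM_s_at of Hnrnpdl, both called, whereas 1438215_PM_at was not called at -0.43.

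Other splicing genes were counted from 5 lists of the machinery around these factors. Of their 106 measured genes 41.5% were lower and 16% higher in WT cells after Doxo, where 13.0% of all probe sets were lower and 21.9% higher. Of 12 kinases and import factors of SR proteins, 9 were lower and 1 higher in WT cells after Doxo, with a median of -0.92. They included Clk4 (-2.07) and Srpk2 (-1.96), which phosphorylate arginine-serine domains, Prpf4b (-2.70) and Dyrk1a (-1.11). Of 37 other splicing regulators 22 were lower and 1 was higher, with a median of -0.77, among them Tardbp (-2.11), which binds UG repeats and is known from motor neuron disease, Celf1 (-1.08), Sfpq (-0.997) and Rsrc1 (-1.64). The core moved less to 1 side. Of 23 Sm and snRNP genes 6 were higher and 3 lower (median 0.13), shares near those of all probe sets, with Snrnp25 (1.36) up and Snrpb2 (-1.75), Snrpe (-0.61) and Snrnp48 (-1.44) down. Of 27 Prp genes, partners of Prpf19 and RNA helicases, 7 were higher and 9 lower (median -0.11). They included the helicases Dhx15 (-1.73) and Ddx42 (-1.76), and Cwc27 (-1.49) and Xab2 (1.04). Of 7 genes of the exon junction complex and nonsense-mediated decay, Smg1 (-2.45) fell and Smg5 (0.89) and Upf1 (0.83) rose. In p66−/− cells after Doxo the counts, higher first, were 1 and 9, 2 and 24, 8 and 3, 5 and 10, and 1 and 2 for the 5 lists in this order. All probe sets were 14.1% lower and 26.6% higher there. After H2O2 in WT cells 5 of the 106 genes were called, all lower, a share of 4.72%. Of all probe sets 3.66% were called in either direction and 1.81% were lower. Whether these shares differ was not tested. The 5 genes were Clk2 (-0.90, adjusted p = 0.00218), a kinase of SR proteins, Tardbp (-0.81), Srrm1 (-0.31), Prpf4 (-0.47) and Casc3 (-0.47).

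**Figure D5:**
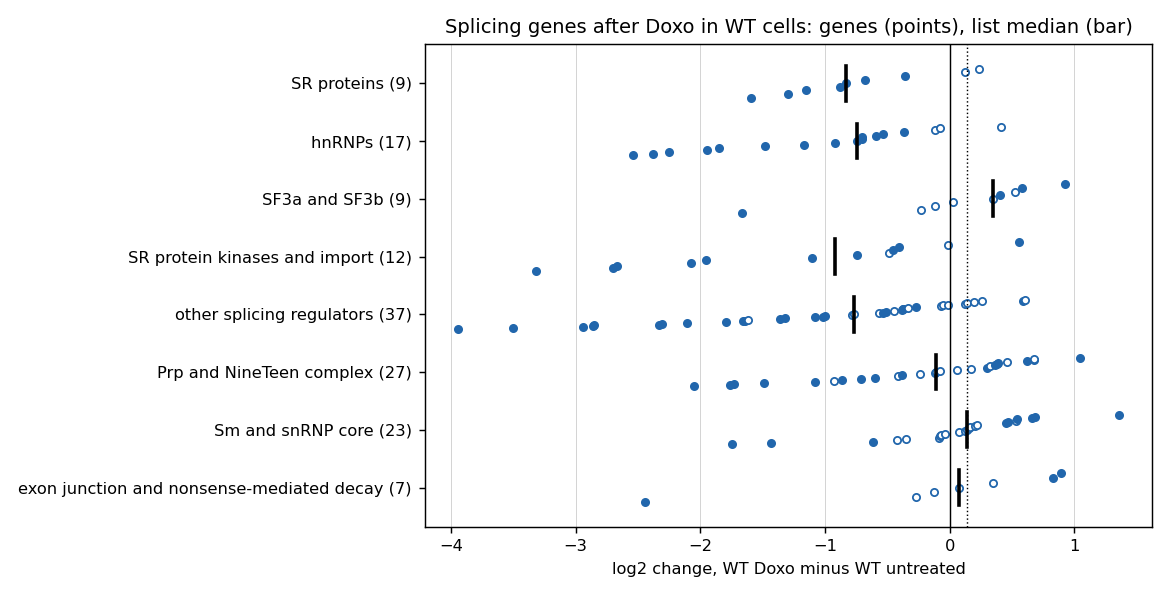
Log2 change in WT cells after Doxo of the SR, hnRNP and SF3 genes and of 5 lists of other splicing genes (points, filled where the adjusted p was under 0.05; number of genes in brackets), with the list median (bar) and the median of all probe sets (dotted line). The medians of SR proteins (-0.83), hnRNPs (-0.74), SR protein kinases (-0.92) and other regulators (-0.77) lie left of the dotted line, and that of the Sm and snRNP core (0.13) on it.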

How the data were processed

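The authors normalized the Affymetrix MG-430 PM arrays with RMA in Partek 6.5 (submitters' processing notes), and deposited them in log2 units between 1.95 and 13.47. RMA brings the distributions of all arrays close together (array medians 4.35 to 4.46), so a shift of most transcripts would be largely hidden. No genome build is given in the sources used here. Of the probe sets, 104 controls were left out and 45037 tested: 28898 had 1 symbol in GEO's platform annotation, 551 several and 15588 none. Array signals carry no read depth, so precision is set by how many arrays a group holds.

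limma 3.58.1 in R 4.3.3 fitted the mean of each of 8 groups over 28 arrays, with adjusted p-values after Benjamini and Hochberg, and the procedure was tested on simulated data. Single values were also compared by two-sided exact permutation tests, whose smallest p is 0.0286 for 4 against 4 arrays and 0.0667 for 2 against 4. A second probe set was said to disagree where it correlated negatively with the chosen one over the 8 group means or was called in the opposite direction. Named genes were up to 8 called genes with the largest change per treatment comparison, a fixed list with Srsf1, Srsf3, Tra2b, Hnrnpa1, Hnrnpk and Sf3b1, genes whose probe sets disagreed, and up to 4 genes by lowest p from each other list. Others, such as the SF3 subunits, were named after their values were seen. The members and lists were chosen with earlier results of these data known.

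Arrays of 1 replicate number deviated together between untreated and H2O2-treated cells (correlations 0.51 to 0.75), so these numbers pair the arrays, although replicates 3 and 4 of p66−/− cells each matched the other's number best. Those of the Doxo arrays (-0.08 to 0.05) do not. Alternatives were the thresholds of the study, no moderation, fits of the groups compared alone, a filter on the lowest 40% of probe sets, a further quantile normalization, replicate blocks, 1 probe set per gene, the mean over probe sets, each array left out, either array set alone, and exchanged p53−/− labels. Fits of the Doxo arrays with either array set were chosen after seeing the data.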

Additional observations from a re-analysis of the deposited data

Results flagged for a closer look

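In 150 checks of values within a group of 4 arrays, 10 had an array whose distance from the others passed Dixon's 95% value. The same arrays were checked for many genes, and several flags fell on the same array, so the checks were not independent. The rate of 1 in 20 that chance gives for a single check therefore cannot judge this count. Whether the flags were more than chance gives was not tested. Replicate 3 of the H2O2-treated WT arrays was low for Srsf1 (10.81, others 11.52 to 11.58), Hnrnpk (11.33, others 11.58 to 11.62) and Hnrnpr (8.55, others 9.59 to 9.77). In p66−/− cells replicate 2 was low for Hnrnpab untreated (11.87) and after H2O2 (11.58), for Srsf2 after H2O2 (10.54) and for Hnrnpa1 untreated (10.80), and replicate 1 was low for Srsf3 after H2O2 (11.07). For Hnrnpa2b1, replicate 4 of the p53−/− arrays labelled untreated (10.89, others 11.39 to 11.43) and replicate 1 of those labelled H2O2 (11.33, others 11.38) stood apart.

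By the labels, the H2O2 response of p53−/− cells differed from that of WT cells in a test of the difference for Hnrnpab (0.81), Hnrnpul1 (0.73), Hnrnpa0 (0.63) and Srsf2 (0.55), each higher in p53−/− cells. With the p53−/− labels exchanged none of the 4 was called.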

How the results depend on the processing

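Of 512 recomputed values of named genes that were called in the Doxo comparisons, 503 kept their direction and side of the threshold, 8 kept only the direction and 1 reversed, Hnrnpab in WT cells (0.081 as the mean over its probe sets). Hnrnpab in p53−/− cells after H2O2 reversed to -0.36 with the labels exchanged. Of 12 genes not called after Doxo in WT cells, 6 were called under at least 1 alternative (Tra2b, Srsf9, Hnrnpl, Sf3a1, Sf3a2 and Sf3a3), and 7 of 12 in p66−/− cells. With the replicate block Tra2b was called in both (-1.15 and -1.33), as were Hnrnpl in WT (0.47) and Sf3b4 in p66−/− cells (0.37), although the Doxo numbers do not pair arrays. The cause of the differences was not tested.

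Counts of called genes moved as follows. Under the thresholds of the study they were 0 for H2O2 in WT, 0 for H2O2 in p53−/− and 0 for untreated p53−/− against WT. With only the groups compared in the fit, which leaves fewer arrays to estimate the spread, they were 1, 0 and 1, and 12 for Doxo against H2O2 in WT. The mean over probe sets gave 0 for H2O2 in p53−/− and 1 for untreated p53−/−. Replicates 1 and 2 alone gave 0 in these 3 comparisons and 0 for the H2O2 response of p53−/− against WT, and replicates 3 and 4 alone gave 1 for H2O2 in WT. Exchanged labels gave 0 for untreated p53−/− and 0 for the response of p53−/−.

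With the replicate block the counts were 4 for H2O2 in WT and 4 for untreated p53−/−, and with the block within genotype 4 for H2O2 in WT and 2 for H2O2 in p53−/−. For the H2O2 response of p53−/− against WT it added Sf3b5 and gave 5. The block moved the WT Doxo median to -0.62 and moved no other count by over 1.5 times.

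Under quantile normalization the median Doxo change became -0.60 for WT and -0.59 for p66−/− cells. It was -0.82 in p66−/− as the mean over probe sets, and -0.60 and -0.58 in WT with replicates 1 and 2 or 3 and 4 of the other groups.

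Leaving out each array in turn, the calls ranged from 17 to 25 for Doxo in WT (lowest without replicate 2 of the Doxo arrays), 22 to 28 in p66−/−, 15 to 22 for Doxo against H2O2, 1 to 2 for H2O2 in WT, 0 to 1 in p53−/−, 1 to 2 for untreated p53−/−, and 3 to 4 for the response of p53−/−. The medians ranged from -0.73 to -0.53 for Doxo in WT and from -0.14 to 0.068 for the difference of Doxo responses. Where a Doxo array was left out, the lone array was taken to vary like the other groups. Signal near background limits Srsf12, Tra2a and Tra2b.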
